A study of Mus musculus with 6 samples.

Results

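The interferon regulatory factors (IRFs) are a family of transcription factors, and 8 of their genes (*Irf1*, *Irf2*, *Irf3*, *Irf4*, *Irf5*, *Irf7*, *Irf8* and *Irf9*) were followed here in the sciatic nerve of mice at post-natal day 4 (P4). They were found by their symbols among the 59485 genes of the deposited table. 3 control libraries, labelled wild-type, were compared with 3 mutant libraries of the genotype HtPA-Cre; Adar1fl/fl;R26R. HtPA stands for the promoter, that of human tissue plasminogen, from which Cre is expressed, and Cre removes floxed *Adar1*, the gene of an RNA-editing enzyme listed as *Adar*, from neural crest (NC) cells and their derivatives, which in nerve are mainly the Schwann cells (SCs). The R26R allele marks these cells with YFP. Controls carried floxed *Adar1* on 1 or both alleles and R26R without Cre, per the methods of the study. The deletion is not directed to nerve cells of other origin, such as endothelial cells and macrophages, so each bulk value sums cells with and without it.

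IRFs bind GAAA repeats through a shared DNA-binding domain. IRF3 and IRF7 are held inactive in the cytoplasm until kinases downstream of nucleic acid sensors phosphorylate them, after which they switch on type I interferon (IFN) genes. IRF9 joins STAT proteins below the IFN receptor in the complex ISGF3, which drives IFN-stimulated genes (ISGs), *Irf7* among them. IRF1 activates antigen presentation and other IFN-gamma genes, IRF2 mostly represses the same sites, and IRF4, IRF5 and IRF8 are best known from immune lineages.

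The targeted gene *Adar* had normalised read counts of 1602, 2066 and 1133 in control libraries and 11768, 9311 and 9773 in mutant libraries. It was thus higher in the group labelled with the deletion. Reads of the deleted segment and of the rest of the gene share a single value. That value cannot show whether the deletion took place, and the groups are called control-labelled and mutant-labelled below. Reads on genes ranged from 50938349 to 78250094 per library. A normalised read count is the number of reads on constitutive regions of a gene divided by a size factor of the library. The markers of SCs were present, with a summed level of 1158241 to 1532345 in control-labelled and 67746 to 230389 in mutant-labelled libraries, and 4 of 8 fell. In bulk values alone, fewer cells of a type and less RNA per cell cannot be told apart. The study reports similar numbers of SCs in control and mutant sciatic nerves at P4, counted by electron microscopy.

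Control-labelled library 2 stood apart from the other controls for this family. It held the highest control value for 6 of the 8 IRF genes, whereas 30.5% of all 25802 genes tested were highest in that library among the controls. It was also the only male library among the controls by *Xist* and Y-linked genes, against 2 of 3 in the mutant-labelled group. Changes that moved by over 1.5 times without it are given with and without it.

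The threshold was a change of at least 2-fold on the log2(value + 1) scale together with a p of 0.05 or less, before adjustment, in limma's moderated test. 5 of the 8 IRF genes passed it as higher in mutant-labelled libraries (*Irf1*, *Irf2*, *Irf5*, *Irf7* and *Irf9*), where 13.9% of all genes tested did. All 8 fold changes were above 0, so none passed as lower in limma, nor did any in edgeR or DESeq2, against 10.4% of all genes in limma. With an adjusted p at or under 0.05 and no limit on the fold, 6 of the 8 were higher, against 19.0% of all genes. For the same 6 genes, which add *Irf8*, all mutant-labelled values lay above all control-labelled values, against 25.9% of all genes. The median log2 fold change was 2.03 over the 8 genes and 0.032 over all genes tested. *Irf3* and *Irf4* were the 2 genes whose groups overlapped.

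**Figure D1:**
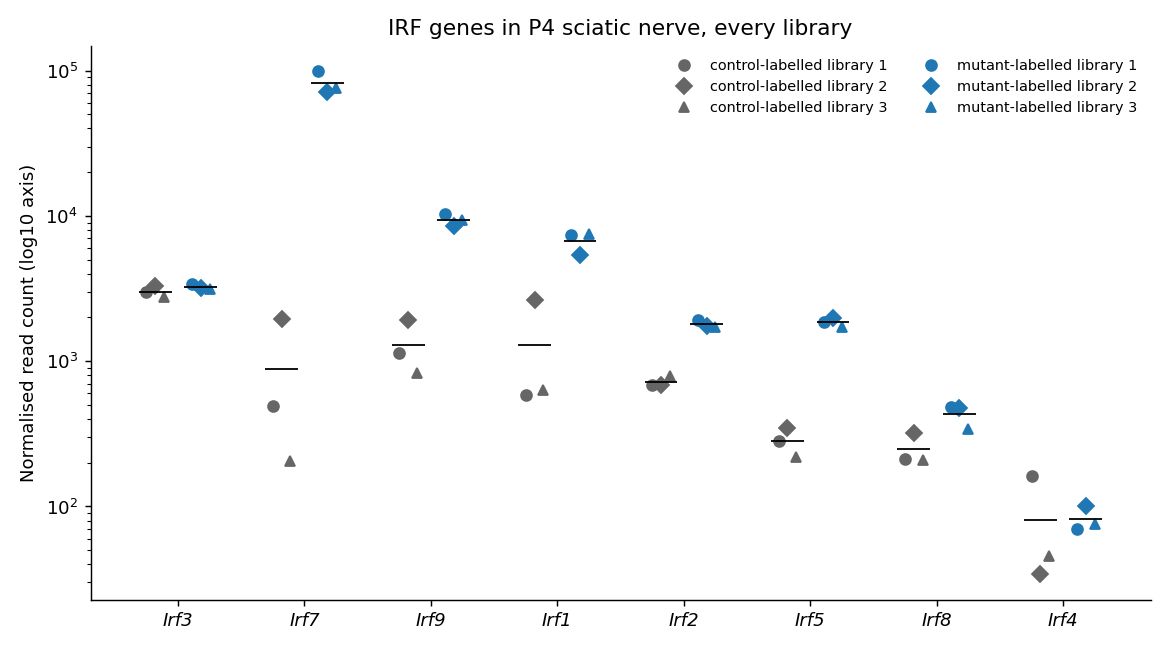
Normalised read count (log10 axis) of each IRF gene in each of the 6 libraries, in grey for control-labelled and blue for mutant-labelled, with a line at the mean of 3 libraries. *Irf7* goes from 204 to 1947 in control-labelled libraries to between 70931 and 99343 in mutant-labelled libraries, while the values of *Irf3* stay between 2764 and 3409 in all 6.

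The sequences just before the start site are shown for *Irf1* and *Irf8*, members whose windows held a match to a STAT site. The letters searched on both strands were GAAANNGAA (core of the IFN-stimulated response element, ISRE, the site of ISGF3 and IRFs), TTCNNNGAA (the gamma-activated site, GAS, bound by STAT dimers), GGAANNGAA (the composite site of ETS factors with IRF4 or IRF8) and GGANTTTCC (a kB site). An ISRE core and a composite site can overlap. Windows ran from 250 bases before to 50 bases after each RefSeq start (GRCm38.p6, the build the authors call mm10), and all 8 genes had one. Of 32851 windows of the genome, 8.56% held an ISRE core, 8.3% a GAS, 8.24% a composite site and 1.25% a kB site. A match to GAS began 90 bases before the start of *Irf1*, and 2 matches began 171 and 153 bases before that of *Irf8*. The windows of *Irf3*, *Irf4*, *Irf5*, *Irf7* and *Irf9* held no match to any of the 4, which says only that these letters are not there. The 250 bases before both starts (chr11:53769764-53770013 and chr8:120736108-120736357, plus strand) follow, with the matches to GAS in capitals.
Irf1: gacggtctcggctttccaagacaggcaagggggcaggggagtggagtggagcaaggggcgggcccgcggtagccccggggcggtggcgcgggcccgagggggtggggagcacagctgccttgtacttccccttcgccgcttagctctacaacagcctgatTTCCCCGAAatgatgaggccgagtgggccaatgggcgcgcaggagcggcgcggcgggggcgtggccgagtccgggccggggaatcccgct
Irf8: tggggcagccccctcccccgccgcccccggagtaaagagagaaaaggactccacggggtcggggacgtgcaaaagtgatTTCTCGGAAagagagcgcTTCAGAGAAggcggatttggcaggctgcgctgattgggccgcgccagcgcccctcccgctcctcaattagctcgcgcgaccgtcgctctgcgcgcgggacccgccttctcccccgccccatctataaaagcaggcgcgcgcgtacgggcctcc

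In *Irf2* the matches stood together near the upstream end of the window. They are shown because they included the only matches to an ISRE core or a composite site in the family. GGAAGTGAAAATGAA at chr8:46739498-46739512 (plus strand) holds a composite site and, overlapping it, an ISRE core, with its first base 247 bases before the start. A GAS match, TTCCGAGAA at chr8:46739521-46739529, follows it.

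*Irf3* and *Irf7* encode the factors that act directly below the sensors. *Irf3* (GSMG0034454, chr7:44997648-45002847, plus strand) had normalised read counts of 3016, 3270 and 2764 in control-labelled libraries 1 to 3 and 3409, 3192 and 3120 in mutant-labelled libraries 1 to 3. These ranges overlapped. The log2 fold change was 0.11 (SE 0.10, 95% interval -0.13 to 0.34, adjusted p = 0.454), so the interval stays far below a 2-fold change.

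*Irf7* (GSMG0036860, chr7:141262706-141266424, minus strand) had 492, 1947 and 204 in control-labelled and 99343, 70931 and 75697 in mutant-labelled libraries. Every mutant-labelled library held more than any control, though the controls themselves spread widely, with library 2 the highest. *Irf7* rose by a log2 fold change of 7.12 (SE 0.67, 95% interval 5.60 to 8.64, adjusted p = 0.000115), or 139-fold on the log2(value + 1) scale, rank 49 among the genes past the threshold as higher. The log2 fold change was 7.99 without control-labelled library 2 and 6.37 without control-labelled library 3, the lowest control.

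*Irf9* (GSMG0011604, chr14:55603985-55610030, plus strand), the DNA-binding part of ISGF3, had normalised read counts of 1134, 1909 and 833 in control-labelled and 10234, 8526 and 9335 in mutant-labelled libraries. The groups were far apart, and control-labelled library 2 was again the highest control. *Irf9* rose by 2.94 (SE 0.26, adjusted p = 8.82e-05), and by 3.26 without that library.

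*Irf1* (GSMG0005191, chr11:53770014-53778374, plus strand) had 582, 2639 and 632 in control-labelled and 7449, 5389 and 7458 in mutant-labelled libraries. Control-labelled library 2 held over 4 times the level of the other controls but stayed below every mutant-labelled library. *Irf1* rose by 2.75 on the log2 scale (SE 0.51, 95% interval 1.59 to 3.92, adjusted p = 0.00376), and by 3.46 without that library. In edgeR's quasi-likelihood test on the recovered reads its adjusted p was 0.0713, with an unadjusted p of 0.0261.

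*Irf2* (GSMG0037259, chr8:46739732-46847466, plus strand) had 688, 688 and 791 in control-labelled and 1916, 1757 and 1727 in mutant-labelled libraries. This was the most even member among the controls that rose, and control-labelled library 2 did not stand out. *Irf2* rose by 1.32 (SE 0.12, adjusted p = 0.000101).

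Among the members known from immune lineages, *Irf5* (GSMG0031599, chr6:29526625-29541871, plus strand), which acts below Toll-like receptors in myeloid cells, had 281, 348 and 219 in control-labelled and 1871, 1975 and 1722 in mutant-labelled libraries. Each group was narrow and the gap between them wide. *Irf5* rose by 2.73 (SE 0.18, adjusted p = 2.36e-05), close to the change of *Irf1*.

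*Irf8* (GSMG0037911, chr8:120736356-120756690, plus strand), a factor of macrophage and dendritic cell development, had 211, 320 and 209 in control-labelled and 481, 474 and 342 in mutant-labelled libraries. The groups did not overlap, but the gap between control-labelled library 2 and mutant-labelled library 3 was small. The log2 fold change was 0.82 (SE 0.24, 95% interval 0.27 to 1.37, adjusted p = 0.0299), under the 2-fold limit. Without control-labelled library 2 it was 1.02, past the limit.

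*Irf4* (GSMG0009602, chr13:30749233-30766981, plus strand), a factor of plasma cells, T cells and melanocytes, had 162, 34.0 and 45.6 in control-labelled and 69.8, 100.3 and 75.2 in mutant-labelled libraries. The highest and the lowest values were both controls. The log2 fold change was 0.35 (SE 0.57, 95% interval -0.97 to 1.66, adjusted p = 0.674), so a change of 2-fold upward lay within the interval. It was 1.02 without control-labelled library 1, past the threshold, and -0.093 without control-labelled library 2.

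No other gene of the table overlapped an IRF gene on its own strand. On the other strand 6 of the 8 were overlapped, *Irf3* by *Bcl2l12*, *Irf5* by *Tnpo3* and *Irf7* by *Phrf1* among them, and whether the counting used strand is not given in the sources used here.

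**Figure D2:**
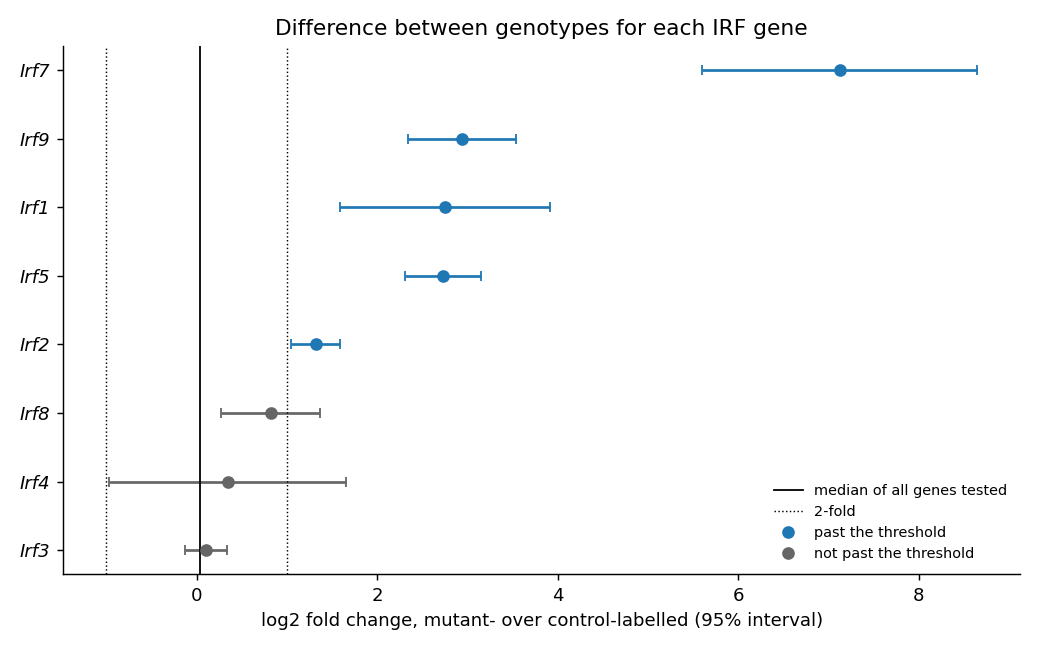
Log2 fold change of each IRF gene, mutant- over control-labelled, with 95% intervals from limma; blue marks genes past the threshold, dotted lines a 2-fold change and the solid line the median of all genes tested. *Irf7* stands alone at 7.12, *Irf9*, *Irf1* and *Irf5* lie between 2.73 and 2.94, and the interval of *Irf4* is wide.

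To order the family by level, normalised read counts were divided by the length of the longest principal transcript of each gene in GENCODE M21, which is not the constitutive length the authors counted on. In control-labelled libraries *Irf3* was the highest, at 1485 ± 125 normalised reads per kb (SD, n = 3). *Irf1* (601 ± 549), *Irf9* (525 ± 226), *Irf7* (459.9 ± 488) and *Irf2* (289 ± 23.7) followed, and in this order each overlapped the next in range. In control-labelled libraries 1 and 3 alike, the order after *Irf3* was *Irf9*, *Irf2*, *Irf1* and *Irf7*. In library 2, *Irf1* and *Irf7* came before *Irf9* and *Irf2*. The range of *Irf7* was wide, 106 to 1016, and also reached those of *Irf5* (126 ± 28.7) and *Irf8* (86.7 ± 22.4), which overlapped each other. *Irf4* (16.9 ± 14.9) was the lowest, below the range of every other member.

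In mutant-labelled libraries the order was led by *Irf7*, at 42792 ± 7941 normalised reads per kb (SD, n = 3). *Irf9* (3808 ± 347) and *Irf1* (3166 ± 558) came next with overlapping ranges. *Irf3* (1595 ± 74.1), *Irf5* (828 ± 56.8), *Irf2* (721 ± 40.7), *Irf8* (152 ± 27.4) and *Irf4* (17.2 ± 3.42) followed without overlap between neighbours.

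Of the summed level per kb of the 8 genes, *Irf3* made up 49.8, 31.0 and 52.4% in control-labelled libraries 1 to 3 and 2.67, 3.39 and 3.08% in mutant-labelled libraries 1 to 3. *Irf7* made up 8.60, 19.6 and 4.10% in the former and 82.4, 79.9 and 79.1% in the latter. The leading member thus differed between the groups in every library, while the level of *Irf3* itself hardly moved. With the length of all merged exons in place of the principal transcript, the order of the 8 genes was identical in both groups and *Irf7* made up 78.8 to 82.1% in mutant-labelled libraries.

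**Figure D3:**
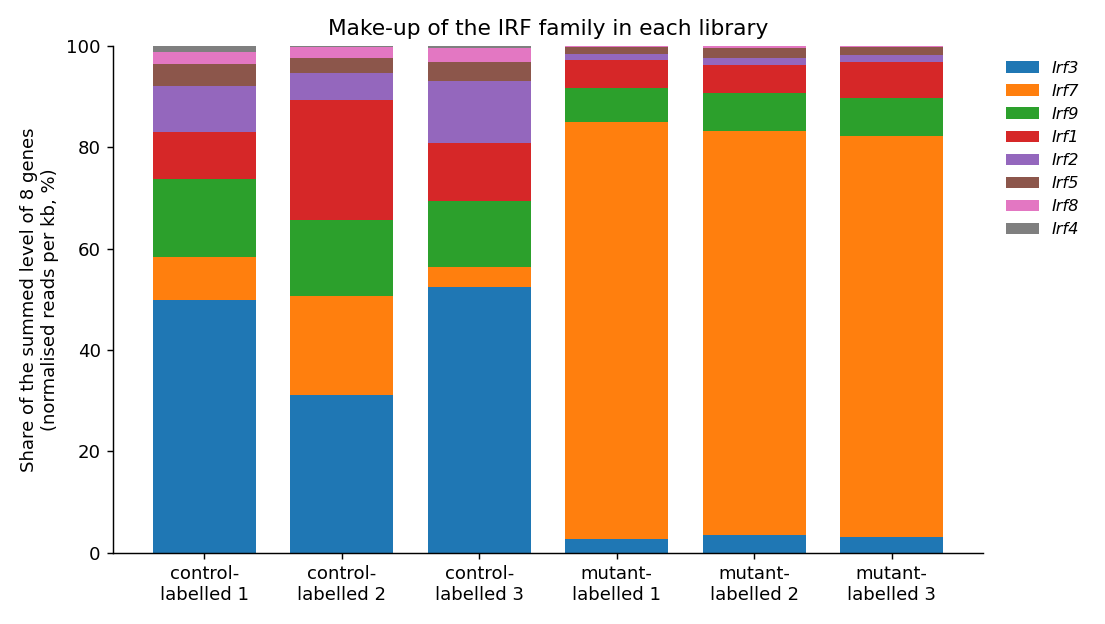
Share of each IRF gene in the summed level of the 8 genes (normalised reads per kb of principal transcript, in %), 1 bar per library. *Irf3* is the largest part in each control-labelled library and *Irf7* takes 79.1 to 82.4% in the mutant-labelled libraries.

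Ratios between genes of the same library do not depend on its scaling. 8 pairs, 7 of them reported here, were compared by an exact two-sided permutation test, which with 3 libraries against 3 cannot give a p below 0.1, and p-values were adjusted over the 8 pairs. The log2 ratio of *Irf7* to *Irf3* was -2.61, -0.75 and -3.75 in control-labelled and 4.86, 4.47 and 4.60 in mutant-labelled libraries. The sign was negative in each control-labelled library and positive in each mutant-labelled library, a mean difference of 7.02 (exact p = 0.1, adjusted p = 0.16). The difference was 7.83 without control-labelled library 2 and 6.33 without control-labelled library 3.

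The log2 ratio of *Irf1* to *Irf2*, an activator and a repressor of the same sites, was -0.24, 1.94 and -0.32 in control-labelled and 1.96, 1.62 and 2.11 in mutant-labelled libraries. Control-labelled library 2 lay within the mutant-labelled range, so the groups overlapped (mean difference 1.44, exact p = 0.2, adjusted p = 0.267). The mean difference was 2.18 without that library.

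Within ISGF3, the log2 ratio of *Irf9* to *Stat2* was -0.90, -0.83 and -0.98 in control-labelled and -1.16, -0.85 and -0.81 in mutant-labelled libraries. The values of the groups overlapped, with a difference of -0.037 (exact p = 0.9) that lay between -0.102 and 0.0730 with 1 library left out.

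Members of the myeloid lineage were set against *Csf1r*, the receptor of macrophage colony-stimulating factor, which fell by 1.25 on the log2 scale, and against *Spi1*, which encodes PU.1, the partner of IRF8. The log2 ratio of *Irf5* to *Csf1r* was -4.33, -3.55 and -4.22 in control-labelled and -0.29, -0.22 and 0.35 in mutant-labelled libraries, a difference of 3.98. The ratio of *Irf8* to *Csf1r* differed by 2.07 and that of *Irf8* to *Spi1* by 0.69, and that of *Irf4* to the melanocyte factor *Mitf*, which itself fell by 2.39, by 2.74. In these 4 pairs every mutant-labelled value lay above every control-labelled value, with the smallest p the design allows (exact p = 0.1) and an adjusted p of 0.16. The difference for *Irf4* to *Mitf* was 3.36 without control-labelled library 1. The sizes of the differences against *Csf1r* hold for that denominator alone. *Irf5* itself rose by 2.73, more than any of the 14 macrophage markers, of which *Fcgr1* rose most (1.58). For *Irf8*, which rose by 0.82, the direction depends on the denominator. *Ptprc*, *Aif1* (1.04) and *Fcgr1* rose by more than *Irf8*, while the rest of the 14 rose by less or fell.

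**Figure D4:**
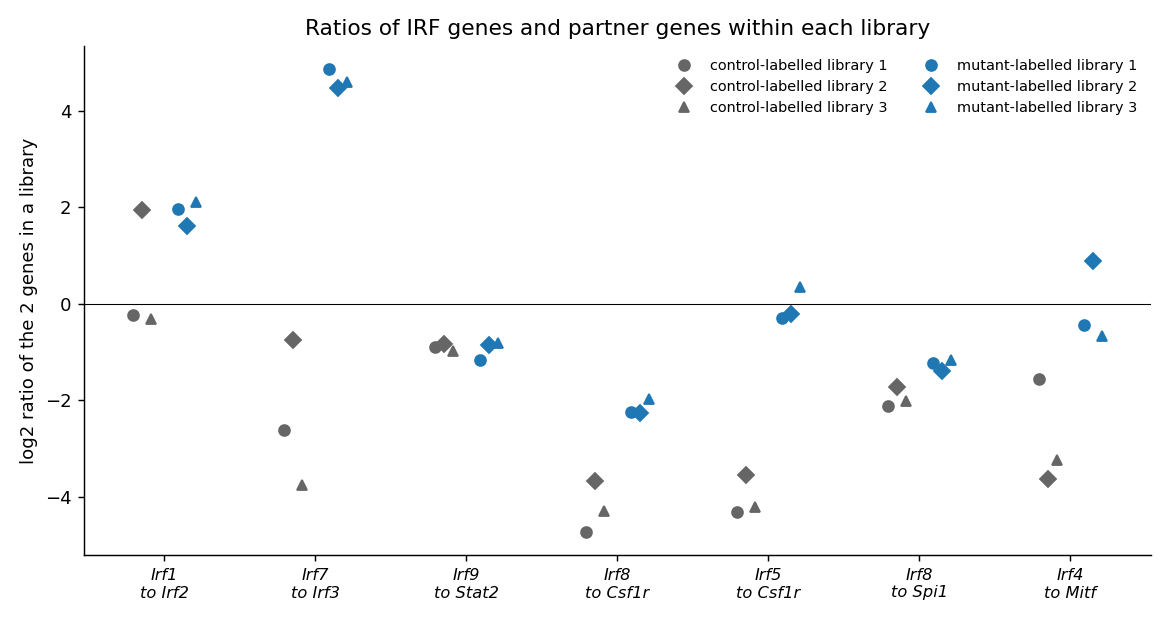
Log2 ratio of 2 genes within each library for 7 pairs, in grey for control-labelled and blue for mutant-labelled libraries. The ratio of *Irf7* to *Irf3* changes sign between the groups, that of *Irf9* to *Stat2* lies between -1.16 and -0.81 in all 6 libraries, and control-labelled library 2 (diamond) lies among the mutant-labelled libraries for *Irf1* to *Irf2*.

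Markers of the immune cells in which these members are known were read alongside. The summed level of 14 macrophage markers was 22909 to 29337 in control-labelled and 23398 to 27308 in mutant-labelled libraries. Of these, 3 rose (*Ptprc*, *Aif1* and *Fcgr1*) and 5 fell (*Csf1r*, *Cx3cr1*, *Mrc1*, *Cd163* and *Lyz2*, whose row is shared with *Lyz1*). *Mrc1*, a scavenger receptor of resident macrophages, fell by 2.27 and *Fcgr1*, a receptor for IgG, rose by 1.58 on the log2 scale.

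The summed level of 9 T and NK cell markers was 117 to 230 (control-labelled) and 440.1 to 628 (mutant-labelled), with 6 of 8 tested genes higher. *Nkg7*, a granule protein gene, rose by 5.06, and *Ncr1*, an NK cell receptor gene, had no reads in control-labelled libraries and 50.9, 75.3 and 37.6 in mutant-labelled libraries, at least 14.4-fold higher against 3 reads in the shallowest control. Of 9 dendritic cell markers 5 were tested, and *Itgax* rose by 2.63 (adjusted p = 0.00519). *Siglech* passed as lower (-2.76, adjusted p = 0.0944), but its groups overlapped, with 35.5, 13.2 and 36.7 in control-labelled and 20.4, 1.93 and 0 in mutant-labelled libraries. The 4 tested B and plasma cell markers had log2 fold changes of -2.16 to -0.02 that did not pass, and the sum of all 7 was 115 to 178 and 89.0 to 116.

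Of 7 neutrophil markers 5 were tested, and only *Csf3r* passed the threshold (3.28). Of 5 tested melanocyte markers *Mitf*, *Dct* and *Pmel* fell and *Mlana*, without reads in the controls, rose to 7.91 to 14.5, with sums of 1012 to 1153 and 195 to 520.1. Skeletal muscle markers differed too, with 5 of 6 higher and sums of 6110 to 32211 and 40330 to 306302, the lowest of them in control-labelled library 2. The 7 endothelial markers had log2 fold changes of 0.16 to 0.81 that did not pass, 3 of 6 fibroblast markers fell, and 4 of 5 erythroid markers fell. The part of these cells in the levels of the IRF genes was not tested.

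Of the 17 sensors and kinases upstream of IRF3 and IRF7, 9 passed the threshold as higher, against 13.9% of all genes tested. The median log2 fold change of the 17 was 1.49. The largest changes were in *Ifih1*, which encodes the double-stranded RNA sensor MDA5 (5.69, SE 0.38), the regulator *Dhx58* (5.49, SE 0.44), *Ddx58*, which encodes RIG-I (4.42, SE 0.33), and *Tlr3*, an endosomal double-stranded RNA receptor (4.04, SE 0.17). *Ifih1* went from 503, 914 and 259.8 in control-labelled to 28416, 21948 and 26734 in mutant-labelled libraries, and no control came near. *Mavs*, the adaptor below MDA5 and RIG-I, had the second smallest change (-0.20, adjusted p = 0.241) and the ubiquitin ligase *Traf6* the smallest (0.041, adjusted p = 0.952).

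Of 9 IFN receptor, kinase and STAT genes 2 passed the threshold as higher, *Stat2* among them, against 13.9% of all genes tested. A count this small does not set the list apart from all genes. The median of the 9 was 0.40. *Stat2* rose by 2.98 (SE 0.26), close to the 2.94 of *Irf9*. The smallest changes were in the IFN-gamma receptor genes *Ifngr1* (-0.080, adjusted p = 0.676) and *Ifngr2* (0.35, adjusted p = 0.0416).

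Of 7 partners of IRF4 and IRF8, 5 passed the threshold as higher, against 13.9% of all genes tested. The median of the 7 was 1.91. The AP-1 family genes *Batf2* (4.93, SE 0.74) and *Batf3* (3.14, SE 0.26) and the ETS gene *Spib* (3.65, SE 0.72) led, followed by *Ikzf3* (1.91, SE 0.79), a gene of low level whose groups overlapped and whose adjusted p was 0.0963. *Spib* was also low, with 2.22, 9.45 and 22.8 in control-labelled and 142, 110.0 and 99.9 in mutant-labelled libraries. Its change was 2.89 without control-labelled library 1 and 4.33 without control-labelled library 3. That of *Batf2* was 5.82 without control-labelled library 2 and 4.04 without control-labelled library 3, and that of *Ikzf3* was 2.55 without control-labelled library 1. *Spi1* (0.13, adjusted p = 0.656) and *Ikzf1* (0.39, adjusted p = 0.147) did not pass. The count was 3 of 7 with an adjusted p at or under 0.05 and no limit on the fold, where 19.0% of all genes were higher.

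The median was 1.48 over 8 inhibitors of IRF activity or of signalling around it. Of these, 4 passed the threshold as higher, against 13.9% of all genes tested. They were *Usp18*, which blocks the IFN receptor (6.18, SE 0.39), *Trim21*, a ubiquitin ligase (3.70, SE 0.24), *Socs1*, which blocks JAK kinases (2.50, SE 0.24), and the DNase gene *Trex1* (2.17, SE 0.17), whose row in the table is shared with *Atrip*. The ubiquitin ligase subunit gene *Rbck1* had the smallest change (0.039, adjusted p = 0.806).

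All 16 targets of IRF3, IRF7 and ISGF3 passed the threshold as higher, against 13.9% of all genes tested. Their median was 6.81. *Ifnb1*, the gene of IFN-beta, had no reads in any control-labelled library and 466, 408 and 507 in mutant-labelled libraries. Against 3 reads in the shallowest control-labelled library it was at least 121-fold higher, and the median was 6.78 with *Ifnb1* at this bound. Such a bound covers counting error only. *Mx1*, an antiviral GTPase (8.55, SE 0.34), *Oas3*, an oligoadenylate synthetase (8.28, SE 1.45), and *Ifit1*, which binds foreign RNA ends (7.88, SE 0.80), had the largest fitted changes among the targets with reads in the controls. *Ifit2* (2.92, SE 0.13) and the tetherin gene *Bst2* (4.71, SE 0.43) changed least. The controls of *Oas3* were uneven, with 28.9, 129 and 0, and its change was 9.80 without control-labelled library 2 and 6.29 without control-labelled library 3. That of *Ifit1* was 8.86 and 6.88 without the same libraries. *Ifit1* and *Mx1* have close paralogs with which reads can be shared.

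Of 15 targets of IRF1, 14 passed the threshold as higher, against 13.9% of all genes tested. The median of the 15 was 3.88. The checkpoint ligand *Cd274* (6.18, SE 1.20), the guanylate-binding protein genes *Gbp5* (6.03, SE 0.71) and *Gbp3* (5.59, SE 0.62), members of a family of similar genes, and *Nlrc5* (4.96, SE 0.93), the activator of MHC class I genes, changed most. The controls of *Nlrc5* were 44.4, 562 and 30.4, with library 2 more than 10 times the others, against 3527, 2104 and 3277 in mutant-labelled libraries. Without control-labelled library 2 the changes were 7.56 for *Cd274*, 7.003 for *Gbp5*, 6.44 for *Gbp3* and 6.26 for *Nlrc5*. Without control-labelled library 3 they were 4.70, 5.32, 4.94 and 4.18 in the same order. The immunoproteasome gene *Psmb10* changed least among those past the threshold (2.16, SE 0.25). *Ciita*, the activator of MHC class II genes, had 0, 0 and 12.7 in control-labelled and 13.1, 13.5 and 9.89 in mutant-labelled libraries and did not pass (2.45, SE 1.16, adjusted p = 0.138). Its change was 1.82 without control-labelled library 1 or 2 and 3.71 without control-labelled library 3, where it passed and the count was 15 of 15.

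Control-labelled library 2 was placed, gene by gene, on the log2 distance from the mean of the other controls (0%) to the mean of the mutant-labelled libraries (100%), for genes with a distance of at least 2-fold. It lay at 61.2% for *Irf1*, 59.4% for *Irf8*, 32.7% for *Irf7*, 29.8% for *Irf9*, 16.7% for *Irf5* and -7.87% for *Irf2*. The median was 39.8% over the 15 targets of IRF1 and 27.1% over the 16 targets of IRF3, IRF7 and ISGF3. This library held the highest control value for 13 of the 15 and for 15 of the 16, and *Ifnb1*, the remaining one of the 16, had no reads in it. Over all genes tested, 30.5% were highest in this library among the controls. These positions describe 1 library and were given no test.

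**Figure D5:**
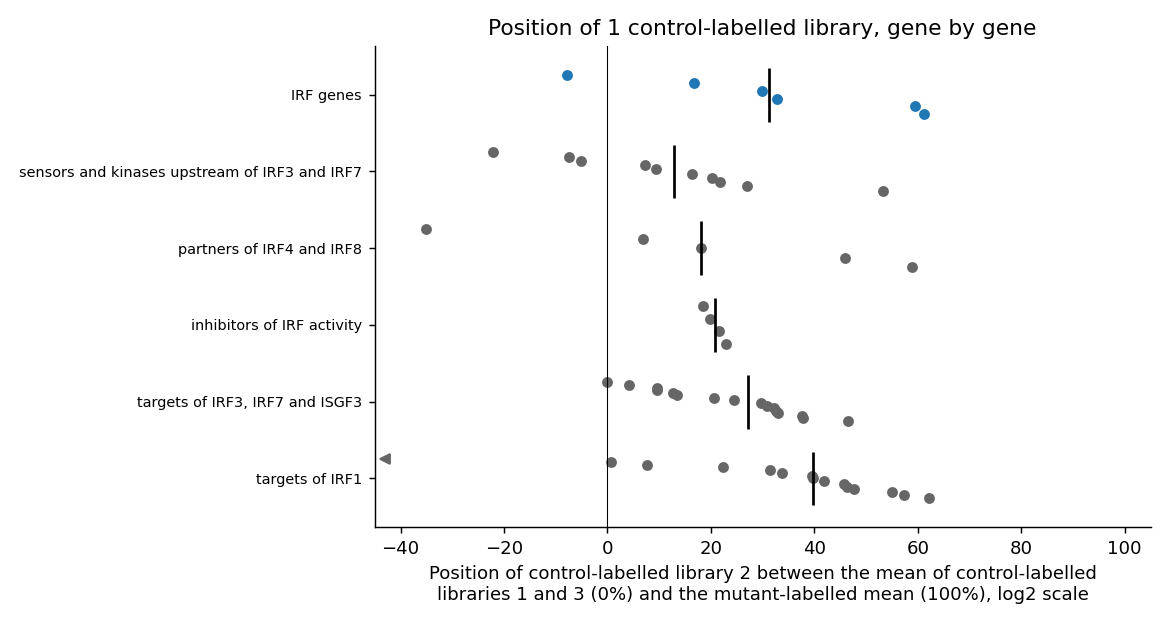
Position of control-labelled library 2 between the mean of control-labelled libraries 1 and 3 (0%) and the mutant-labelled mean (100%) on the log2 scale, 1 point per gene, with a line at the median of each list; the triangle at the left edge stands for *Ciita*, which lies beyond the axis at -104%. *Irf1* and *Irf8* lie at 61.2 and 59.4%, the targets of IRF1 at a median of 39.8% and *Irf2* below 0%.

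For each member, the genes outside the family with the most similar log2 levels over the 6 libraries were found by Pearson's r. The search covered 16641 genes with a symbol. It is a description only, since the genotypes form separate clusters and the points share their libraries. For *Irf7* they were *Isg15* (0.9994), *Lgals3bp* (0.9992) and *Ddx60* (0.9989), and for *Irf9* they were *Ddx60* (0.9997), *Dhx58* (0.9996) and *Uba7* (0.9995). *Irf7* and *Irf9* had an r of 0.9995 with each other, above that of *Irf7* with *Isg15*. For *Irf1* they were *Rspo4* (0.9978), *A630012P03Rik* (0.9977) and *Fcgr4* (0.9974), and for *Irf5* they were *Ly6e* (0.9995), *Tmem119* (0.9991) and *Bmp8b* (0.9989).

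*Irf2* was most like *Mthfd2* (0.9987), *Tbcc* (0.9987) and *Orc2* (0.9986), and *Irf8* most like *Lhx8* (0.9992), *Efcab7* (0.9928) and *Rhoh* (0.9911). *Irf3*, which hardly varied, was most like *Hsbp1l1* (0.9947), *C1qb* (0.976) and *BC051226* (0.9695), and *Irf4* most like *Cda* (0.9769), *Klhdc10* (0.9744) and *Dusp11* (0.9726). An r above 0.95 was reached by 1750 genes for *Irf5*, 1626 for *Irf2*, 1410 for *Irf9* and 1280 for *Irf7*. The number was 273 for *Irf1*, 113 for *Irf8*, 13 for *Irf4* and 11 for *Irf3*.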

How the data were processed

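RNA of P4 sciatic nerves was sequenced from 3 control and 3 mutant mice. The authors mapped reads to mm10 with STAR 2.4.0, counted those on constitutive regions of FAST DB genes, and deposited 1 signal per gene and library, the count divided by a DESeq2 size factor. Dividing by the value of a single read (0.727 to 1.27) gave whole numbers, within 0.01, for 100% of the values, and these reads entered edgeR 4.0.16 and DESeq2 1.42.0 as alternatives.

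Groups and replicate numbers come from the labels, and the numbers name different animals. Each library was taken as 1 animal; p-values measure the spread between these libraries. limma 3.58.1 (R 4.3.3; lmFit, eBayes with trend) was fitted to log2(value + 1) for the 25802 genes with a mean of at least 10 in at least 1 genotype, all 8 IRF genes among them, and p-values were adjusted over these by the Benjamini-Hochberg method. Of the IRF pathway lists (6) and cell type marker lists (11), 4 symbols had no row: 3 later names of *Ddx58*, *Tmem173* and *Mb21d1*, and *Irf2bpl*, which was not analysed here. The members and lists were chosen with earlier results of these data known, so they carry no independent support. Named are all 8 IRF genes and, in each pathway list, the 4 genes past the threshold with the largest change and the 2 with the smallest change. For the order by level, exon lengths came from GENCODE M21, and promoter sequences from RefSeq. Results of a few single genes are left out here. Ratios used scipy 1.17.1. The scripts were tested on simulated data.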

Additional observations from a re-analysis of the deposited data

How the results depend on the processing

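The count of IRF genes past the threshold, 5 higher and none lower, stayed at 5 or 6 under 14 other settings and with each of 6 libraries left out. The directions and calls of *Irf1*, *Irf2*, *Irf3*, *Irf5*, *Irf7* and *Irf9* held in all of them. *Irf4* reversed to -0.093 without control-labelled library 2 and passed at 1.02 without control-labelled library 1, and *Irf8* passed at 1.02 without control-labelled library 2. The adjusted p of *Irf8* ran up to 0.0969, and that of *Irf1* to 0.0713. The difference of the log2 ratio of *Irf9* to *Stat2* ranged from -0.102 to 0.0730 with a library left out, changing sign to 0.00018 without control-labelled library 2 and to 0.0730 without mutant-labelled library 1. The partners of IRF4 and IRF8 fell from 5 to 3 without a trend in eBayes and with an adjusted p, with or without the 2-fold limit, and to 3 (range 3 to 5) without mutant-labelled library 1 or 2. With an adjusted p and no limit on the fold, 15 sensors and kinases were higher, 6 receptor, kinase and STAT genes were higher and 1 lower, and 4134 genes of the table were lower, which follows from dropping the limit. Other causes were not tested. Rescaling to the same total moved the median of all genes from 0.032 to 0.202. Deviations of same-numbered libraries correlated at -0.0619, -0.0555 and 0.00891. These values show no pairing by number but, with 3 libraries per group, cannot exclude one. With the replicate number as a block 5 IRF genes passed. *Irf4* had 146, 36 and 36 reads in control-labelled libraries 1 to 3 and 96, 104 and 76 in mutant-labelled libraries 1 to 3.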
